A study of Mus musculus with 10 samples.

Results

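Collagens are secreted proteins whose chains wind into a rope-like helix and build the matrix between cells, and a small set of enzymes inside the secretory pathway prepares those chains. The genes described here are the 44 collagen chain genes, whose symbols consist of Col, a number, the letter a and a number, and 10 genes of collagen-modifying enzymes and the collagen chaperone (P4ha1 to P4ha3, Plod1 to Plod3, Lox, Loxl1, Loxl2 and Serpinh1). They were picked out by symbol and make up 54 of the 35087 gene symbols in the tables. By role they fall into 11 fibrillar chains, 8 basement membrane chains, 25 other chains, and 10 enzymes and chaperone.

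The libraries hold polyadenylated RNA of granulosa cells, the somatic cells that surround the oocyte, cut from ovaries of wild-type female C57B6/J mice by laser microdissection and amplified by GEO-seq, a protocol for very small captured areas. The 4 NAC libraries come from mice given NAC (N-acetyl-l-cysteine, which supplies cysteine and acts as an antioxidant) at 150 mg/kg into the peritoneum on each of 3 days, and the 6 saline libraries come from mice given saline by the same route on the same days. The mice were 3 weeks old, the ovaries were taken on day 4 counted from the first injection, and all 10 libraries carry batch number 1. No label ties a library to an animal, so the p-values measure only the spread between captured samples, which may be technical.

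As background, fibrillar chains such as those of types I and III are made mainly by stromal, thecal and other mesenchymal cells, and type IV chains form the sheet-like basal lamina on which the granulosa layer rests. New chains are hydroxylated on proline by the P4ha enzymes and on lysine by the Plod enzymes, both of which need oxygen, iron, 2-oxoglutarate and ascorbate, and are escorted by the chaperone Serpinh1 (HSP47) until they are secreted. Enzymes of the Lox family then cross-link the chains outside the cell. P4ha1, P4ha2, Plod1, Plod2 and Lox are known targets of hypoxia-inducible factor in other cells, and the study's title concerns HIF1 in follicles.

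NAC libraries 1 to 4 held 1295412, 509945, 116461 and 1667181 estimated reads, against 1340324 to 2488408 in the saline libraries. The 54 genes together had 3453, 1405, 70 and 3835 reads in NAC libraries 1 to 4, against 1624 to 5981 in saline. A single read was therefore worth 7.97 CPM (reads relative to the library's total, corrected with TMM factors) in NAC 3 and 2.03 CPM in NAC 2, against 0.440 to 0.685 CPM in saline, and a count of 0 allows up to 3 reads, or 23.9 CPM in NAC 3 and 6.08 CPM in NAC 2. These limits cover counting error only, since several amplified reads can stem from 1 molecule. All 12 granulosa markers had reads in NAC 1, NAC 3, NAC 4 and every saline library and 11 in NAC 2, but their summed level was 11020, 6911, 13290 and 11830 CPM in NAC 1 to 4, against 12450 to 40740 CPM in saline. The sum is carried by Inha, the inhibin alpha chain, at 2557 to 8125 CPM in NAC and 7521 to 32510 CPM in saline. Of the 12 markers, 2 had a positive and 10 a negative log2 fold. At an unadjusted p under 0.05, 5 were lower in NAC, beside 8.37% of all genes tested. None passed an adjusted p of 0.05.

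Of the 54 genes, 28 had enough reads to be tested, and none passed an adjusted p of 0.05 in edgeR's quasi-likelihood test of NAC against saline. Over all 10945 genes tested, 8 passed, or 0.0731% (0.0183% higher and 0.0548% lower in NAC). At an unadjusted p under 0.05 there were 6 of the 28, beside 16.2% of all genes tested. Of these, Col5a2 and Col6a3 were higher in NAC, beside 7.79% of all genes, and Col9a2, P4ha2, Serpinh1 and Plod3 were lower, beside 8.37%. The last 4 were also the genes whose groups did not overlap in CPM, all lower in NAC, beside 5.38% of all genes tested in either direction (1.96% higher and 3.43% lower in NAC). Of the other tools run, DESeq2 called 2 of the genes, Col9a2 and P4ha2, among 433 genes in all, and limma-voom called none among 475. The median log2 fold, NAC over saline, was 1.05 for the fibrillar chains, 0.57 for the basement membrane chains, 0.51 for the other chains and -0.37 for the enzymes and chaperone, beside 0.02 over all genes tested. On log2(TPM + 0.1) the fibrillar and other chains had negative medians of -0.27 and -0.16. With offsets for GC content and length the 4 medians were 1.23, 0.81, 0.73 and -0.33, in the order given above. Single libraries also moved these medians: the fibrillar median was 0.45 without NAC 1, 0.54 without NAC 2 and 1.63 without saline 6, and 0.19 without the low-count filter and 0.39 on log2(TPM + 1). The median of the other chains was 0.30 without NAC 1 and 0.83 without saline 2, and that of the enzymes and chaperone -0.78 without NAC 1 and -0.73 without NAC 2.

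**Figure D1:**
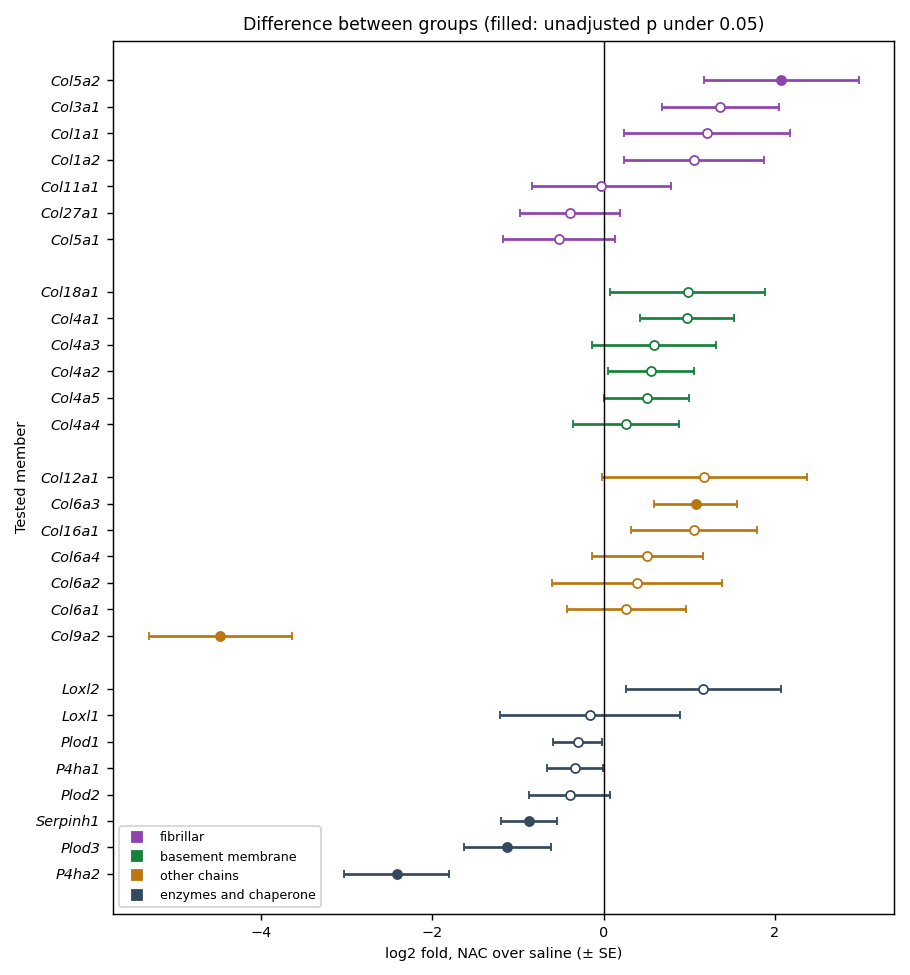
Log2 fold changes, NAC over saline, of the 28 tested genes with their standard errors, coloured by class; filled points have an unadjusted edgeR p under 0.05. Of the 28, 17 lie right of 0 and 11 left of it, with Col9a2 (-4.48) and P4ha2 (-2.42) farthest to the left.

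To show where transcription of the genes with separate groups begins, the bases before their RefSeq start sites are given next, from RefSeq with build GRCm38.p6, beside Col3a1 as the fibrillar chain with the highest mean TPM in saline (Col1a2 is higher per kilobase of the longest transcript). Capitals mark the core of the hypoxia response element (ACGTG or GCGTG) and the CCAAT box, each on either strand; ACGTG overlaps the E-box CACGTG. Col9a2 is at chr4:121039316-121039384 on the forward strand and ends before its first exon in GENCODE, P4ha2 at chr11:54100674-54100923 (forward), Serpinh1 at chr7:99353240-99353489 (reverse), Plod3 at chr5:136986769-136987018 (forward) and Col3a1 at chr1:45311288-45311537 (forward). In GENCODE the P4ha2 gene begins earlier, at base 54100095, so its window lies inside the annotated gene.
Col9a2: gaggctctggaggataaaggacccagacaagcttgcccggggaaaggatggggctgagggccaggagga
P4ha2: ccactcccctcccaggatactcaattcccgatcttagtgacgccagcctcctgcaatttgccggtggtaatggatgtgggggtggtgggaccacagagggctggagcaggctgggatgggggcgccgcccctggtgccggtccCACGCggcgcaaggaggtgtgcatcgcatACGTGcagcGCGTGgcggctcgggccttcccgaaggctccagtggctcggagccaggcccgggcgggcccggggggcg
Serpinh1: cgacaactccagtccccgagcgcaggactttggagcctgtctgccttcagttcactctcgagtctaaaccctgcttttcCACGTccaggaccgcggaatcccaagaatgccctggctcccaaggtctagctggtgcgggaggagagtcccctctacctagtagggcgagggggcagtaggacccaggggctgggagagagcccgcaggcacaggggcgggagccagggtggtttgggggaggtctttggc
Plod3: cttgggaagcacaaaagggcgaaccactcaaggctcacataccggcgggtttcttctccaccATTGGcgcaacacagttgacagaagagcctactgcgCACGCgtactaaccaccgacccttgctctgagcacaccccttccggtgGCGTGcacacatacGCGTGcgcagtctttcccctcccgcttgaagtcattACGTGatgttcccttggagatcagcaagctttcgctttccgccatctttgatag
Col3a1: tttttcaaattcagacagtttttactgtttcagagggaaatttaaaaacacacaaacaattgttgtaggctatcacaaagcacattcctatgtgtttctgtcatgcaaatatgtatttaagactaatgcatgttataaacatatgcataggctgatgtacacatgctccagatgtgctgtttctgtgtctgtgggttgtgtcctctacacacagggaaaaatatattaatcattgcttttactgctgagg
Over the 250 bases before the start, Plod3 held 4 hypoxia cores, P4ha2 and P4ha1 3 each, Serpinh1 and Plod1 1 each, and Col9a2 and Col3a1 none. Of the 41 genes of the set with a RefSeq promoter, 16 (39.0%) held the core, beside 38.6% of 32851 promoters of the same length, so the share in the set was close to the background. Among the 6 enzyme and chaperone genes matched, 5 held it and P4ha3 did not. Plod2, Lox, Loxl1 and Loxl2 had no promoter matched, so this count is too small and too partial to describe the enzymes as a class. CCAAT stood in 13 of the 41 (31.7%, against 33.8% of all promoters), and the GC box GGGCGG in 26 (63.4%, against 32.7%). The set counts a single promoter per gene and the background every listed promoter, so these shares are on unlike units. These letters are a description of the windows and say nothing on binding.

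Among the fibrillar chains, 7 of 11 were tested: 4 had a positive and 3 a negative log2 fold, and none passed. Their summed level rested mostly on Col1a1, Col1a2 and Col3a1, except in saline 3 and saline 4. There Col11a1 was the highest fibrillar chain, at 91.8 and 68.6 CPM, and Col27a1 had 23.6 and 48.3 CPM. The sum was 968, 1322, 71.7 and 759 CPM in NAC 1 to 4. In saline its lowest was 134, its median 328 and its highest 911 CPM. NAC 1 and NAC 2 lay above every saline library, NAC 4 lay within the saline range and NAC 3 below it with 9 reads. The means were 780 ± 526 CPM in NAC and 413 ± 293 CPM in saline (SD, n = 4 and 6), a difference smaller than the spread within NAC. It came to 367 CPM, but to 186 CPM without NAC 2 and 603 CPM without NAC 3.

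Col3a1, the chain of type III collagen (chromosome 1, bases 45311538 to 45349706, GRCm38), had 233, 553, 47.8 and 231 CPM in NAC 1 to 4, against 21.9, 61.3 and 252 CPM as the lowest, median and highest of saline. NAC 2 lay above every saline library, NAC 1 and NAC 4 above 5 of the 6, and NAC 3 in the lower part of their range. On the log2 scale NAC exceeded saline by 1.36 ± 0.68 (SE, adjusted p = 0.343 in edgeR), and by 0.79 without NAC 2. Col1a2, which encodes the second chain of type I collagen, had 318, 575, 7.97 and 242 CPM in NAC, against 25.0, 112 and 395 CPM in saline, with a log2 fold of 1.05 ± 0.82 (edgeR adjusted p = 0.546), which was 0.54 without NAC 2 and 1.63 without saline 6. Only NAC 2 exceeded the highest saline library, and the single read of NAC 3 lay below the lowest.

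Col1a1, the other type I chain, had 321, 26.3, 0 and 206 CPM in NAC and 9.81, 49.1 and 162 CPM in saline, with a log2 fold of 1.21 ± 0.97 (edgeR adjusted p = 0.562), but 0.45 without NAC 1 and -0.27 on log2(TPM + 0.1). NAC 1 and NAC 4 lay above every saline library, NAC 2 within their range, and NAC 3 had no read. Both chains are parts of the same molecule, and their ratio in TPM, a level per transcript length, differed more among NAC than among saline libraries. Col1a1 over Col1a2 was 0.842, 0.0406, 0 and 0.729 in NAC 1 to 4, against 0.259 to 0.556 in saline. The wider spread in NAC came from the shallow libraries. NAC 2 had 13 Col1a1 reads, and NAC 3 had 0 Col1a1 reads and 1 Col1a2 read. The deeper NAC 1 and NAC 4 lay close together, above the saline range. In NAC 2, Col1a2 was at its highest of any library while Col1a1 lay within the saline range.

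The remaining fibrillar chains were weaker. Col5a2, which helps start and limit the thickness of type I fibrils, had 10.7, 26.3, 7.97 and 19.1 CPM in NAC, against 0, 2.58 and 10.6 CPM in saline. NAC 2, NAC 4 and, narrowly, NAC 1 lay above the saline range, and NAC 3 with 1 read fell inside it. Its log2 fold was 2.08 ± 0.91 (edgeR unadjusted p = 0.036, adjusted p = 0.271) on 65 reads in NAC and 48 in saline. Col5a1, its partner in type V collagen, averaged 13.1 ± 4.44 CPM in NAC and 19.9 ± 13.1 CPM in saline (log2 fold -0.52 ± 0.66). The log2 fold of Col5a1 was 0.11 with the replicate number as a block.

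Col11a1, a minor fibril chain best known from cartilage, had 20.7, 126, 0 and 12.2 CPM in NAC, against 4.79, 37.2 and 91.8 CPM in saline, with a log2 fold of -0.03 ± 0.81 that changed sign with several settings, scaling by library size alone among them. NAC 2 alone lay above the saline range. Col27a1, another chain best known from cartilage, had 45.7, 2.03, 0 and 36.1 CPM in NAC and 23.6 to 48.3 CPM in saline (log2 fold -0.39 ± 0.59). The deep libraries NAC 1 and NAC 4 lay inside the saline range and the shallow NAC 2 and NAC 3 below it. Col2a1, Col11a2 and Col24a1 had at most 34 reads each over all libraries and were not tested, and Col5a3 had none.

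**Figure D2:**
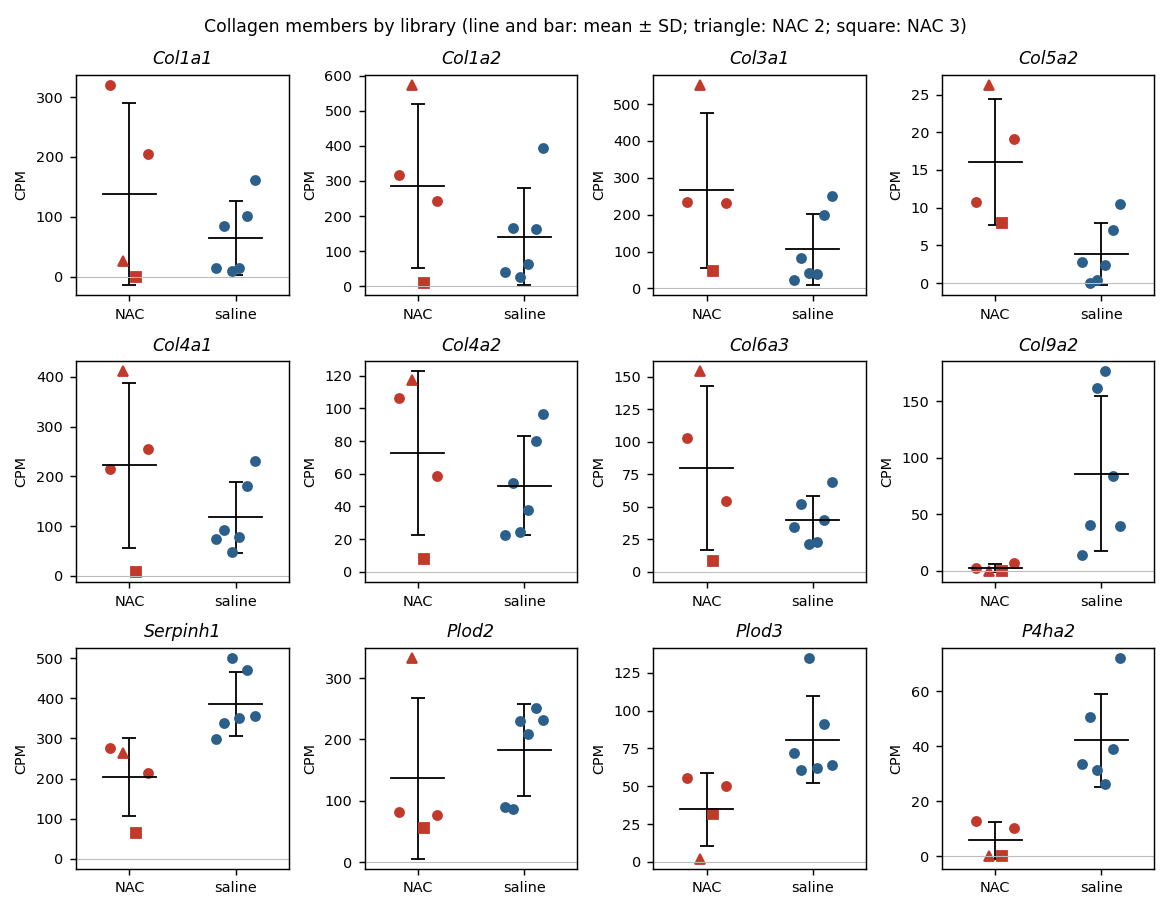
CPM per library of 12 genes of the set, with NAC left of saline, the mean and SD as bars, and the shallow libraries NAC 2 (triangle) and NAC 3 (square) marked. The NAC points of Col9a2, P4ha2, Serpinh1 and Plod3 all lie below the saline points, while those of the fibrillar and type IV chains spread across the saline range and above it, with NAC 3 below it for Col1a1, Col1a2, Col4a1 and Col4a2.

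Stromal marker genes were also measured in these captures. Of the 14 theca and stroma markers, 13 were tested, 11 with positive and 2 with negative log2 folds. At an unadjusted p under 0.05, 6 were higher in NAC (beside 7.79% of all genes tested), and none passed. The negative log2 folds were those of Cyp11a1 (-0.17) and Star (-0.42). Cyp17a1 had 0.27, and Insl3, not tested, had 10 reads in NAC and 72 in saline, so the list did not move as 1 block. The summed level of the 14 was 738, 1707, 175 and 439 CPM in NAC 1 to 4, against 148, 436, 121, 158, 389 and 468 CPM in saline 1 to 6. Mgp and Dcn made up 417 and 383 CPM of the sum in NAC 2. All 14 had a read in NAC 1 and NAC 4, 11 in NAC 2 and 5 in NAC 3, against 11 to 14 in saline, and none was at 0 in every library. The fibrillar sum was low in the same saline libraries (1, 3 and 4) in which the marker sum was low, and its ratio to the marker sum was 1.31, 0.775, 0.409 and 1.73 in NAC 1 to 4, against 0.903 to 1.95 in saline. Smooth muscle and pericyte markers summed to 264, 691, 23.9 and 165 CPM in NAC, against 25.9 to 374 CPM in saline. Of 9 tested, 7 had positive and 2 negative log2 folds, and 2 were higher in NAC at an unadjusted p under 0.05. Endothelial markers summed to 74.2, 164, 47.8 and 139.6 CPM in NAC, against 12.0 to 56.4 CPM in saline. All 4 tested had positive log2 folds, 3 of them at an unadjusted p under 0.05. These counts too stand beside 7.79% of all genes tested, and none of these markers passed. The part of these markers in the collagen values was not tested; in captured tissue, fewer cells of a type and less RNA per cell cannot be told apart.

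**Figure D3:**
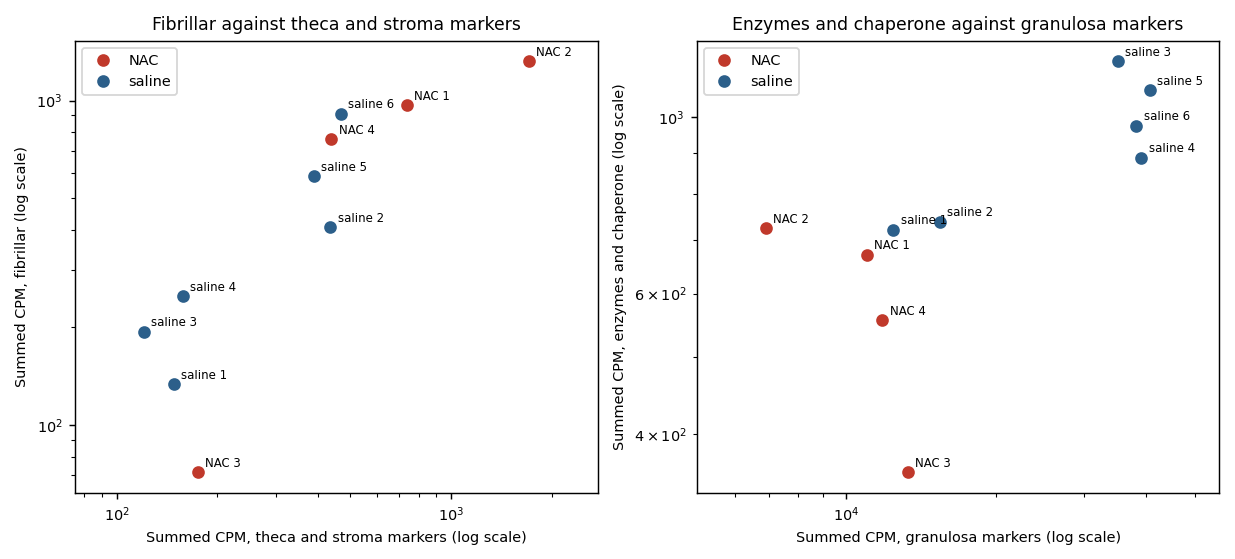
Summed CPM per library on log axes: the fibrillar chains against the theca and stroma markers, and the enzymes and chaperone against the granulosa markers, with NAC and saline libraries in different colours. Saline 1, 3 and 4 and NAC 3 lie at the low end of both fibrillar and stroma sums, and NAC 2 at the high end.

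Of the 8 basement membrane chains, 6 were tested; all 6 had a positive log2 fold, and none passed. Their sum was 403, 585, 63.7 and 382 CPM in NAC 1 to 4, against 117, 184 and 374 CPM as the lowest, median and highest of saline. NAC 1, NAC 2 and NAC 4 lay above every saline library, NAC 4 narrowly, and NAC 3 below every one with 8 reads. The means were 359 ± 217 CPM in NAC and 219 ± 103 CPM in saline (SD). Their difference of 139 CPM was 63.5 CPM without NAC 2 and 237 CPM without NAC 3.

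Col4a1 and Col4a2 encode the common chains of type IV collagen. On chromosome 8 they lie head to head, their RefSeq start sites at 11312826 and 11312805, so that their 5′ ends overlap by 22 bases on opposite strands; the counting is not stated to use strand, and reads of that stretch cannot be assigned with certainty. Col4a1 had 215, 411, 7.97 and 254 CPM in NAC, against 48.1, 84.3 and 231 CPM in saline, with a log2 fold of 0.97 ± 0.55 (edgeR adjusted p = 0.395). NAC 2 and NAC 4 lay above the saline range, NAC 1 inside it and NAC 3, with 1 read, below it. Col4a2 had 106, 117, 7.97 and 58.4 CPM in NAC, against 22.6, 46.1 and 96.7 CPM in saline (log2 fold 0.55 ± 0.50, edgeR adjusted p = 0.604). NAC 1 and NAC 2 lay above the saline range here, NAC 4 within it and NAC 3 below it. With offsets for GC content and length the log2 folds of Col4a1 and Col4a2 were 1.67 and 1.33 (edgeR adjusted p = 0.372 and 0.384).

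The chains of the other type IV networks were weak. Col4a3 averaged 11.8 ± 8.53 CPM in NAC and 6.81 ± 3.94 CPM in saline, Col4a4 16.1 ± 10.2 CPM in NAC and 13.9 ± 7.95 CPM in saline, and Col4a5 23.5 ± 8.85 CPM in NAC and 17.5 ± 8.51 CPM in saline, with log2 folds of 0.59 ± 0.72, 0.26 ± 0.62 and 0.50 ± 0.50. Col18a1, the precursor of endostatin, had 12.1, 4.05, 0 and 14.3 CPM in NAC and 0 to 8.90 CPM in saline (log2 fold 0.98 ± 0.91). In each of these genes the groups overlapped. Col15a1 and Col4a6, with 59 and 49 reads over all libraries, were not tested.

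Of the 25 other chains, 7 were tested, 6 with a positive and 1 with a negative log2 fold. Their summed level did not separate the groups, at 421, 213, 63.7 and 339 CPM in NAC 1 to 4, against 115, 281 and 370.2 CPM as the lowest, median and highest of saline. The means were 259 ± 156 CPM in NAC and 266 ± 87.8 CPM in saline. Col9a2, the gene with the negative log2 fold, made up 2.44 CPM of the NAC mean and 86.1 CPM of the saline mean. The near-equal means therefore hold only for the sum with Col9a2. Type VI collagen forms beaded filaments around cells, and its Col6a3 chain had 103, 154, 7.97 and 54.7 CPM in NAC, against 21.4, 36.9 and 69.0 CPM in saline. NAC 1 and NAC 2 lay above the saline range, NAC 4 in its upper part and NAC 3 below it. Its log2 fold was 1.08 ± 0.48 (edgeR unadjusted p = 0.0406, adjusted p = 0.283), and 0.65 without NAC 2.

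The partners of Col6a3 spread more widely in NAC. Col6a1 had 74.2, 14.2, 0 and 110.4 CPM in NAC and 10.6 to 109 CPM in saline, and Col6a2 had 149.8, 0, 0 and 80.2 CPM in NAC and 6.85 to 96.3 CPM in saline. Both NAC groups covered the saline range from end to end, with log2 folds of 0.27 ± 0.69 and 0.39 ± 0.99, both of which turned negative on the log2(TPM + 1) scale. Col6a4 averaged 14.7 ± 11.7 CPM in NAC and 11.3 ± 6.73 CPM in saline. Col12a1 and Col16a1, which bind to the surface of fibrils, had log2 folds of 1.18 ± 1.20 and 1.06 ± 0.73.

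Col9a2, a chain of type IX collagen that decorates type II fibrils in cartilage, had the largest negative log2 fold of the 28 tested genes. It had 2.85, 0, 0 and 6.90 CPM in NAC 1 to 4, against 13.7, 40.5, 162, 176, 84.2 and 40.0 CPM in saline 1 to 6, which is 17 reads in all NAC libraries and 1092 in all saline libraries. Every NAC library lay below every saline library, although a count of 0 in NAC 3 allows up to 23.9 CPM, more than the lowest saline value. The means were 2.44 ± 3.27 CPM in NAC and 86.1 ± 68.3 CPM in saline (SD). That is a log2 fold of -4.48 ± 0.84 (edgeR unadjusted p = 6.21e-05, adjusted p = 0.0529), which misses the threshold narrowly.

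Whether Col9a2 is called therefore turned on the setting. Its adjusted p was 0.0283 without the low-count filter, 0.0476 with offsets for GC content and length, 1.5e-05 in DESeq2 and 0.0199 without saline 1, and ranged from 1.5e-05 to 0.409 over 24 alternatives, with log2 folds from -6.09 to -3.94. With the deeper NAC 1 and NAC 4 as the only NAC libraries, the log2 fold was -4.11 (adjusted p = 0.157). Its longest transcript has 62.7% GC, and log2 folds over all genes ran with GC content, with medians of 0.44, 0.15, -0.18 and -0.41 in 4 equal classes of rising GC, the last above 54.2%. The type IX partners could not be compared, since Col9a1 had no read in any library and Col9a3 had 33 reads in 4 libraries. Col9a2 lies on chromosome 4 (bases 121039385 to 121055322, forward strand, GRCm38), and the bases before its start are printed above.

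Of the 10 genes of enzymes and chaperone, 8 were tested; 7 had a negative log2 fold and 1 a positive one, none past the threshold, with Loxl1 turning positive when library size alone was used for scaling. Their summed level was 671, 725, 358 and 555 CPM in NAC 1 to 4, against 722, 931 and 1174 CPM as the lowest, median and highest of saline. NAC 1, NAC 3 and NAC 4 lay below every saline library and NAC 2 just above the lowest, so the groups overlapped by 1 library. The means were 577 ± 162 CPM in NAC and 930 ± 182 CPM in saline (SD, n = 4 and 6).

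Serpinh1, the collagen chaperone of the endoplasmic reticulum (chromosome 7, bases 99345376 to 99353239, GRCm38), was the most abundant gene of the set per length, at 111 ± 53.6 TPM in NAC and 197 ± 26.9 TPM in saline. In CPM it had 277, 263, 63.7 and 213 in NAC 1 to 4, against 299, 354 and 500.1 as the lowest, median and highest of saline. All NAC libraries lay below all saline libraries, NAC 1 by a small margin and NAC 3, with 8 reads, by the widest. They differed by a log2 fold of -0.87 ± 0.33 (edgeR unadjusted p = 0.0165, adjusted p = 0.217). With offsets for GC content and length it was -0.13 (adjusted p = 0.891); the longest transcript of Serpinh1 has 56.4% GC.

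P4ha2, a catalytic subunit of the prolyl hydroxylase (chromosome 11, bases 54100095 to 54131665, GRCm38), had 12.8, 0, 0 and 10.1 CPM in NAC, against 26.1, 36.3 and 72.1 CPM in saline, on 37 reads in NAC and 523 in saline. The groups lay apart in every library, and the most that a count of 0 allows in NAC 3 (23.9 CPM) is below the lowest saline value. The log2 fold was -2.42 ± 0.61 (edgeR unadjusted p = 0.00117, adjusted p = 0.0972), and -1.92 with NAC 1 and NAC 4 as the only NAC libraries (adjusted p = 0.0851). DESeq2 gave an adjusted p of 0.00619 and edgeR without the low-count filter 0.0182, and over the 24 alternatives it ranged from 0.00619 to 0.714. P4ha1, the main catalytic subunit in most cells, had 79.9, 34.4, 135 and 82.8 CPM in NAC, against 74.6, 101 and 126 CPM in saline (log2 fold -0.33 ± 0.33, edgeR adjusted p = 0.636). The NAC values of P4ha1 covered the saline range and beyond, and the ratio of P4ha1 to P4ha2 in TPM was 3.78 and 3.87 in NAC 1 and NAC 4, against 0.914 to 2.83 in saline; NAC 2 and NAC 3 have no P4ha2 read and no ratio. P4ha3, another subunit gene, had 48 reads in all, 3 of them in NAC, and was not tested.

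The lysyl hydroxylases had negative log2 folds of different size. Plod3, which also adds glucose to hydroxylysine (chromosome 5, bases 136987019 to 136996648, GRCm38), had 55.6, 2.03, 31.9 and 49.9 CPM in NAC, against 60.5, 68.0 and 135 CPM in saline. Every NAC library lay below every saline library, NAC 2 with a single read lowest. The log2 fold was -1.13 ± 0.51 (edgeR unadjusted p = 0.0412, adjusted p = 0.285), but -0.73 without NAC 2 and -0.65 without NAC 2 and NAC 3. Plod2, which hydroxylates the ends of the chains where cross-links form, had 82.0, 332, 55.8 and 76.5 CPM in NAC, against 86.6, 219 and 251 CPM in saline. NAC 1, NAC 3 and NAC 4 lay below every saline library and NAC 2 above every one, which left a log2 fold of -0.40 ± 0.47 (edgeR adjusted p = 0.693); without NAC 2 and NAC 3 it was -1.25 (adjusted p = 0.169). Plod1 had 133, 72.9, 63.7 and 103 CPM in NAC and 82.7 to 151 CPM in saline (log2 fold -0.30 ± 0.29).

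The cross-linking enzymes were near the detection limit. Loxl1 had 17.1, 4.05, 0 and 10.1 CPM in NAC and 0 to 22.0 CPM in saline, with a log2 fold of -0.16 ± 1.05 whose sign depended on the setting. Loxl2 had 12.8, 16.2, 0 and 8.49 CPM in NAC and 0 to 11.2 CPM in saline (log2 fold 1.17 ± 0.91), the one positive log2 fold among the tested enzymes. Lox, with 13 reads over all libraries, was not tested. The granulosa marker sum was below that of every saline library in NAC 1, NAC 2 and NAC 4, and below all but saline 1 in NAC 3, and its part in the enzyme values was not tested. Within saline, library 1 had both the lowest marker sum, 12450 CPM, and the lowest enzyme sum, 722 CPM.

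In levels per length, measured as TPM, the order in saline was led by Serpinh1 (170.5 to 243 TPM over the 6 libraries), clear of Plod2 in second place (28.2 to 69.6 TPM). After these came Col3a1, Plod3, Col9a2, Plod1, P4ha1, Col1a2, Col4a1 and P4ha2, with means of 47.4 ± 46.3, 43.4 ± 13.9, 42.9 ± 33.9, 41.1 ± 12.4, 35.5 ± 5.33, 27.8 ± 26.2, 24.2 ± 14.6 and 23.3 ± 9.49 TPM (SD, n = 6). Neighbours in this order from Plod2 down did not differ beyond their spread. In NAC the means of the same genes were 71.7 ± 48.0 TPM for Col3a1, 24.1 ± 23.7 for Plod3, 1.07 ± 1.46 for Col9a2, 59.3 ± 42.1 for Col1a2, 49.1 ± 32.8 for Col4a1 and 4.28 ± 4.98 for P4ha2 (SD, n = 4). By these means Col3a1 and Col1a2 followed Serpinh1 in NAC, with spreads that overlapped those of the genes after them.

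**Figure D4:**
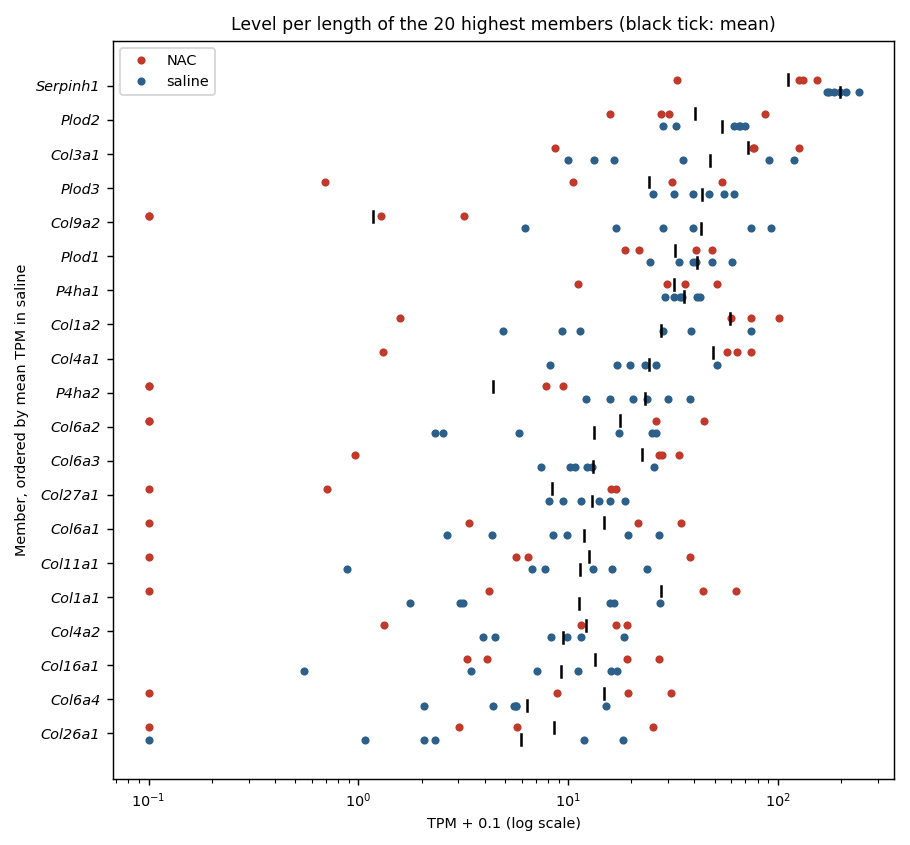
Levels in TPM + 0.1 on a log axis of the 20 most abundant genes of the set, 1 point per library with NAC above saline and a black tick at the mean; points at 0.1 have no reads. Serpinh1 leads in both groups, and Col9a2 and P4ha2 show the widest gap between NAC and saline.

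The ratio of fibrillar chains to enzymes and chaperone, as summed CPM within a library, was 1.44, 1.82, 0.200 and 1.37 in NAC 1 to 4, against 0.185, 0.550, 0.165, 0.281, 0.542 and 0.935 in saline 1 to 6. NAC 1, NAC 2 and NAC 4 lay above every saline library, and NAC 3, whose value rests on 9 fibrillar reads, lay among the lowest. The ratio is a description and was given no test.

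Other genes of the collagen pathway gave no call in any of 5 lists; their counts at an unadjusted p under 0.05 stand beside 7.79% of all genes tested higher and 8.37% lower in NAC. Of 25 further processing genes, 19 were tested, 9 with positive and 10 with negative log2 folds and a median of -0.19; 2 higher and 4 lower in NAC had an unadjusted p under 0.05. Among them Fkbp10, a proline isomerase of the endoplasmic reticulum that works with Plod2, averaged 76.5 ± 35.9 CPM in NAC and 207 ± 72.8 CPM in saline (log2 fold -1.38 ± 0.37, edgeR adjusted p = 0.104), with overlapping groups. Adamts2, which removes the amino-terminal propeptide of fibrillar chains, averaged 162 ± 63.2 CPM in NAC and 280.0 ± 25.0 CPM in saline (log2 fold -0.75, edgeR adjusted p = 0.206), with every NAC library below every saline one, and P3h4, a partner of lysyl hydroxylase in the endoplasmic reticulum, 88.5 ± 49.1 CPM in NAC and 179 ± 57.1 CPM in saline (log2 fold -0.96, edgeR adjusted p = 0.214).

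Matrix proteins that bind collagen had 6 positive and 1 negative log2 folds among 7 tested of 12 and a median of 1.90, and 2 higher in NAC at an unadjusted p under 0.05. Ogn, the small proteoglycan osteoglycin, averaged 50.0 ± 65.6 CPM in NAC and 7.21 ± 9.75 CPM in saline, with 148 CPM in NAC 2 and 7.97 to 25.0 CPM in the other NAC libraries, and Dcn, the fibril-binding proteoglycan decorin, 116 ± 179 CPM in NAC and 24.0 ± 23.7 CPM in saline, with 383 CPM in NAC 2 alone. Dcn, Lum and Ogn are also on the theca and stroma marker list. For breakdown, 7 of 14 genes were tested with 4 positive and 3 negative log2 folds, a median of 0.74 and 3 higher in NAC at an unadjusted p under 0.05. Mmp2, a gelatinase, averaged 45.5 ± 39.9 CPM in NAC and 8.21 ± 5.43 CPM in saline (log2 fold 2.45, edgeR adjusted p = 0.111), and the protease inhibitors Timp1 and Timp3 had log2 folds of 1.09 and 1.23. Mmp9 and Mmp13 had no read.

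Collagen receptors had 4 positive and 2 negative log2 folds among 6 tested of 9, with a median of 0.52, and 2 higher and 1 lower in NAC at an unadjusted p under 0.05. Ddr2, a receptor kinase for fibrillar collagen, averaged 29.2 ± 22.6 CPM in NAC and 5.50 ± 6.39 CPM in saline (log2 fold 2.52, edgeR adjusted p = 0.201), and the integrin chain Itga2 8.64 ± 7.46 CPM in NAC and 21.3 ± 5.47 CPM in saline (log2 fold -1.72, edgeR adjusted p = 0.244). The Itga2 groups were barely apart, with NAC 3 at 15.93 CPM on 2 reads against 15.94 CPM in saline 4. The oxygen-sensing hydroxylases and their partners, relatives of the P4ha enzymes in cofactor use, had 2 positive and 4 negative log2 folds among 6 tested of 7, with a median of -0.20 and 1 lower in NAC at an unadjusted p under 0.05. Egln2, which hydroxylates hypoxia-inducible factors, averaged 43.3 ± 30.2 CPM in NAC and 92.7 ± 30.6 CPM in saline (log2 fold -0.93, edgeR adjusted p = 0.273). Vhl and Epas1 had log2 folds of -0.88 and -0.36.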

How the data were processed

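The authors deposited a table for each library. Per the submitters' processing notes, Salmon and GRCm38 were used; the version is not given in the sources used here. Per the file headers, each table holds estimated counts, TPM and transcript lengths. Rows without a gene symbol (1548 rows, 0.496% to 0.638% of the reads of a library) were left out. The deposited lengths were not used as gene lengths: Col1a1 is listed at 1482.5 bases in saline 6, where its longest annotated transcript has 5930.

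Estimated counts were rounded and tested with edgeR 4.0.16 in R 4.3.3 (quasi-likelihood, robust, TMM factors, default low-count filter), with Benjamini-Hochberg adjustment over 10945 genes and calls at 0.05. CPM are scaled with TMM factors. Salmon splits shared reads between similar sequences. The procedure was also run on simulated counts with known folds. These were drawn without a GC trend or cell mixture, so they do not show how the test behaves on these captures. Gene positions come from GENCODE M21 on GRCm38.

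The genes, classes, lists and markers were chosen with earlier results of these data known. Named were the up to 8 tested genes per class with the highest mean CPM, those with an unadjusted p under 0.05, and up to 3 genes per list with the smallest p. Breakdown, receptor, oxygen-sensor, processing and collagen-binding lists are described by counts. Markers of oocyte (176 to 1292 CPM in NAC, 1.32 to 1681 CPM in saline), leukocyte (0 to 44.6 and 0 to 19.1 CPM), surface epithelium (97.2 to 709 and 184 to 348 CPM) and erythrocyte (0 to 834 and 0 to 84.8 CPM) were summed as well. Krt8, Krt18 and Wt1 had reads in every library and carried most of the surface epithelium sum. Krt19, Upk3b and Upk1b had 26, 67 and 18 reads in NAC, confined to NAC 1 and NAC 4, and none in saline. Lgals7 had 23 reads in NAC and 6 in saline. The part of surface epithelium in the collagen values was not tested.

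Alternatives were RLE factors, library size alone, other filters, non-robust estimation, length and GC offsets (mgcv 1.9.3), DESeq2 1.42.0, limma 3.58.1 (voom, and log2 TPM with 1 or 0.1 added), the replicate number as a block, and libraries left out.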

Additional observations from a re-analysis of the deposited data

Results flagged for a closer look

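In 64 groups of CPM values examined (NAC and saline for each of the 28 tested genes and the summed level of each of the 4 classes), 4 held a library far from the others by Dixon's criterion. For normally distributed values chance gives about 1 in 20 groups. CPM on few reads need not follow that distribution, and the groups share libraries and genes, so this rate may not hold here. In NAC 2, Col11a1 stood at 125.5 CPM and Plod2 at 332.1 CPM, each above the other 3 NAC libraries. In saline 2, Col4a3 stood at 14.44 CPM and Col6a4 at 24.22 CPM, each above the other 5 saline libraries. The depth of NAC 2, 509945 estimated reads, is below that of every library but NAC 3.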

How the results depend on the processing

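Over 24 alternatives, the 28 tested genes gave 665 values, of which 635 kept the direction and 30 reversed; 19 genes never reversed, and 6 values passed the threshold. All genes called numbered 8, but 226 without the low-count filter, 16 with GC content and length offsets, 433 in DESeq2, 475 in limma-voom, 2 without NAC 2 and NAC 3 together, and 1 to 58 with each library left out (58 without NAC 1, 39 without NAC 2, 22 without saline 1). Genes of the set called numbered 0, but 2 without the filter, 1 with the GC and length offsets, 2 in DESeq2 and 0 to 1 with each library left out. The same-numbered NAC and saline libraries showed little common deviation from their group means (correlations -0.008, 0.010, 0.009 and 0.196). Only NAC 4 had its same-numbered library, saline 4, as the best match among saline. In captures that vary this much, low correlations cannot exclude a pairing, and the labels state none. With the replicate block 1 gene was called, and 2 with the block and the GC and length offsets, and no gene of the set. Under the block, Col5a1 was 0.11 and Loxl1 1.28, and with the offsets too 0.44 and 1.99. The median of all genes was 0.02, and 0.18 with library size alone, -0.14 on log2(TPM + 0.1), -0.09 with the block and -0.15 with the block and offsets, and -0.10 to 0.02 with 1 library out. On log2(TPM + 0.1) the medians were -0.27 for fibrillar and -0.16 for other chains, and Col1a1 was -0.27, Col6a1 -1.16, Col6a2 -2.22, Col6a4 -0.16 and Loxl1 0.08; on log2(TPM + 1) Col6a1 was -0.40 and Col6a2 -0.75. With library size alone, Col11a1 was 0.12, Loxl1 0.09 and the difference in the sum of other chains 28.7 CPM, which was 114 CPM without NAC 2 and NAC 3 and -61.2 to 57.9 CPM with 1 library out. Without NAC 2 and NAC 3, Col27a1 was 0.26, Col4a4 -0.04 and Loxl1 0.33. Loxl1 was 0.32 with the GC and length offsets and 0.17 in limma-voom, and Col11a1 0.01 with the stricter filter. With 1 library out, log2 folds ran from -1.57 to 0.29 for Col11a1, -0.12 to 0.53 for Col4a4, -0.44 to 0.66 for Col6a1, -0.55 to 0.82 for Col6a2 and -0.78 to 0.17 for Loxl1. The cause of these changes was not tested. Depth limits NAC 3 most, where 1 read is worth 7.97 CPM.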

Other observations

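Of the 26 genes of the set that were not tested, 3 had no read in any library (Col5a3, Col9a1 and Col10a1) and the others had at most 90 reads over all libraries. Col26a1 was highest, with 34 reads in NAC and 56 in saline. Col20a1, with 10 and 35 reads, had a read in 2 of the 4 NAC and all 6 saline libraries, and Col4a6, with 5 and 44 reads, in 2 of 4 and 6 of 6. For both genes the libraries without a read were the shallow NAC 2 and NAC 3. Counts were rounded, and Col4a6 had 0.317 TPM in NAC 2 and 0.590 TPM in NAC 3. Col9a3 had 3, 0, 0 and 21 reads in NAC 1 to 4, against 9 reads over the 6 saline libraries. Col4a1 over Col4a2 in TPM, chains of 1 molecule, was 3.33, 3.41, 0.994 and 6.55 in NAC 1 to 4, against 5.26, 1.74, 2.13, 2.40, 2.29 and 2.80 in saline 1 to 6. The NAC 3 value rests on 1 read of each gene. Col6a2 over Col6a1 was 2.08, 0 and 0.755 in NAC 1, NAC 2 and NAC 4, against 0.267 to 2.68 in saline. The 0 in NAC 2 rests on 0 Col6a2 reads and 7 Col6a1 reads.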
